A study of Mus musculus with 5 samples.

Results

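Ion channel genes were followed in liver tumors driven by Akt and Notch, with and without late overexpression of the transcription factor Prox1. The genes were taken by symbol, as every listed gene whose mouse symbol begins as the families of potassium channels (Kcn), voltage-gated calcium channels (Cacna, Cacnb, Cacng), voltage-gated sodium channels (Scn), TRP channels of the C, M and V groups (Trpc, Trpm, Trpv) or ClC chloride channels (Clcn) do. A mean of at least 10 normalised counts over the 5 libraries was also required. Of 170 genes with such a symbol, 86 met that level, among 17105 genes of any kind that did. The other 84 were not tested, and 17 of them had no read in any library. The choice used only the symbol and the mean over all libraries. Cacna1b (10.06 normalised counts) and Cacng1 (10.43) stood just above the limit, and Kcnc2 and Cacnb4 (both 9.91) just below it. Among the 86 were 2 genes that encode no channel subunit. Trpc4ap encodes a protein that associates with TRPC4, and Kcnq1ot1 is a non-coding RNA read from the strand opposite Kcnq1.

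Bulk RNA-seq was available for 2 Control and 3 Prox1 overexpression (Prox1 OE) tumors of female C57BL/6N mice injected at 8 weeks of age. All mice received Sleeping Beauty transposon plasmids by tail vein, pT3-EF1a-AKT and pT3-EF1a-NICD-IRES-rtTA, so that Control tumors carried both drivers as well. The Prox1 OE tumors carried pT3-Tre-FLAG-mmProx1-IRES-GFP in addition, and the Control tumors pT3-Tre-IRES-GFP. Doxycycline food (6.25%) was given from day 21, which set the expression window from week 3 to week 4. The Tre promoter acts only in cells that hold rtTA, the doxycycline-dependent activator, so plasmid Prox1 was limited to cells that had taken up the plasmids. Sources used here do not tie a library to a mouse or nodule, so p-values measure the spread between these libraries.

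Ion channels are membrane proteins that open a selective path for an ion down its gradient. Potassium channels set the resting voltage of most cells, and in secretory epithelia they return potassium across the membrane so that chloride can leave on the other side. Voltage-gated calcium and sodium channels carry the electrical signals of nerve and muscle, TRP channels pass cations in response to stretch, temperature, lipids or oxidants, and ClC proteins move chloride at the surface or in exchange for protons in endosomes and lysosomes. In the liver, bile duct cells are the classical secretory epithelium.

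Libraries held 48740863 to 56629477 reads. Prox1 was at 4153 and 4664 normalised counts (reads divided by the size factor of the library) in the Control libraries and at 48090, 11113 and 8231 in Prox1 OE replicates 1, 2 and 3. The log2 fold change was 1.90 (adjusted p = 0.0607 by limma, whose tests are used throughout). Markers of bile duct cells were lower in Prox1 OE (7 of 8 tested, none higher), as were those of smooth muscle and pericytes (6 of 8) and of proliferation (4 of 4). Markers of hepatocytes (7 of 8), macrophages (4 of 8) and T and NK cells (4 of 8) were higher, with none lower, and endothelium had 2 of 8 higher. Fibroblast and stellate markers went both ways (2 higher, 2 lower of 8), 1 of 5 B and plasma cell markers was higher, and neutrophil markers had no call. Of the nerve and glia list, 2 of 5 tested were lower, and the neuronal genes Elavl3 and Snap25 never exceeded 3 reads. Over all genes tested, 17.1% were called higher and 16.2% lower. In bulk tumor, fewer cells of a type and less RNA per cell cannot be told apart.

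Ion channel genes took a smaller share of reads in the Prox1 OE tumors. The 86 genes held 0.123% and 0.122% of reads in Control replicates 1 and 2 and 0.0742%, 0.0704% and 0.0584% in Prox1 OE replicates 1, 2 and 3. Without Trpc4ap the shares were 0.109% in both Control libraries and 0.0606%, 0.0575% and 0.0467% in Prox1 OE. Both measures left the groups apart. A share of reads also moves with abundant genes outside the set, such as albumin, which held 480678 and 798691 normalised counts in Control and 1559106 to 2594529 in Prox1 OE. On the normalised scale, the 84 channel subunits summed to 47158 and 49768 in Control and to 34666, 32918 and 30472 in Prox1 OE.

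A total of 27 of the 86 genes (31.4%) passed an adjusted p of 0.05, close to the 33.3% of all genes tested that did. By direction, 8 genes (9.3%) were called higher in Prox1 OE, against 17.1% of all genes, and 19 (22.1%) were called lower, against 16.2%. In all, 70.4% of the ion channel calls were falls, against 48.6% of all calls. Scaling by total count gave a split of 3 higher and 28 lower. Library values of the groups did not overlap for 50 genes (58.1%, 22 higher and 28 lower), against 63.3% of all genes. The median log2 fold change was -0.28, against -0.02 over all genes. When scaled by total count, both medians moved down, to -0.70 and -0.44, and their distance was about the same (-0.26, against -0.27 as reported). The distance depended on single libraries. It shrank to -0.098 without Prox1 OE replicate 3, where the median was -0.11, and widened to -0.37 without Control replicate 2, where the median was -0.38. By level, 17 of 36 genes with a mean of at least 100 normalised counts were called (4 higher, 13 lower), against 39% of all genes at that level, and 10 of 50 below it (4 higher, 6 lower), against 15.6%. Counts within a class or list are descriptions and rest on few genes. With so few libraries the number of calls depended on single ones. It was 8 without Control replicate 1, 10 without Control replicate 2, 13 without Prox1 OE replicate 2, 18 without Prox1 OE replicate 3 and 31 without Prox1 OE replicate 1. The percentage of all genes called moved with it, from 6.77% without Control replicate 1 to 43.8% without Prox1 OE replicate 1. Calls for Kcnq1, Kcne3, Kcnh5, Kcnk16 and Kcnn2 were kept under each alternative that tested them. With all libraries kept or the replicate number as a block, 11 calls were lost under at least 1 alternative, those of Clcn2, Clcn3, Clcn5, Kcna2, Kcnh7, Kcnj14, Kcnmb1, Kcns3, Trpc4ap, Trpm4 and Trpm7.

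**Figure D1:**
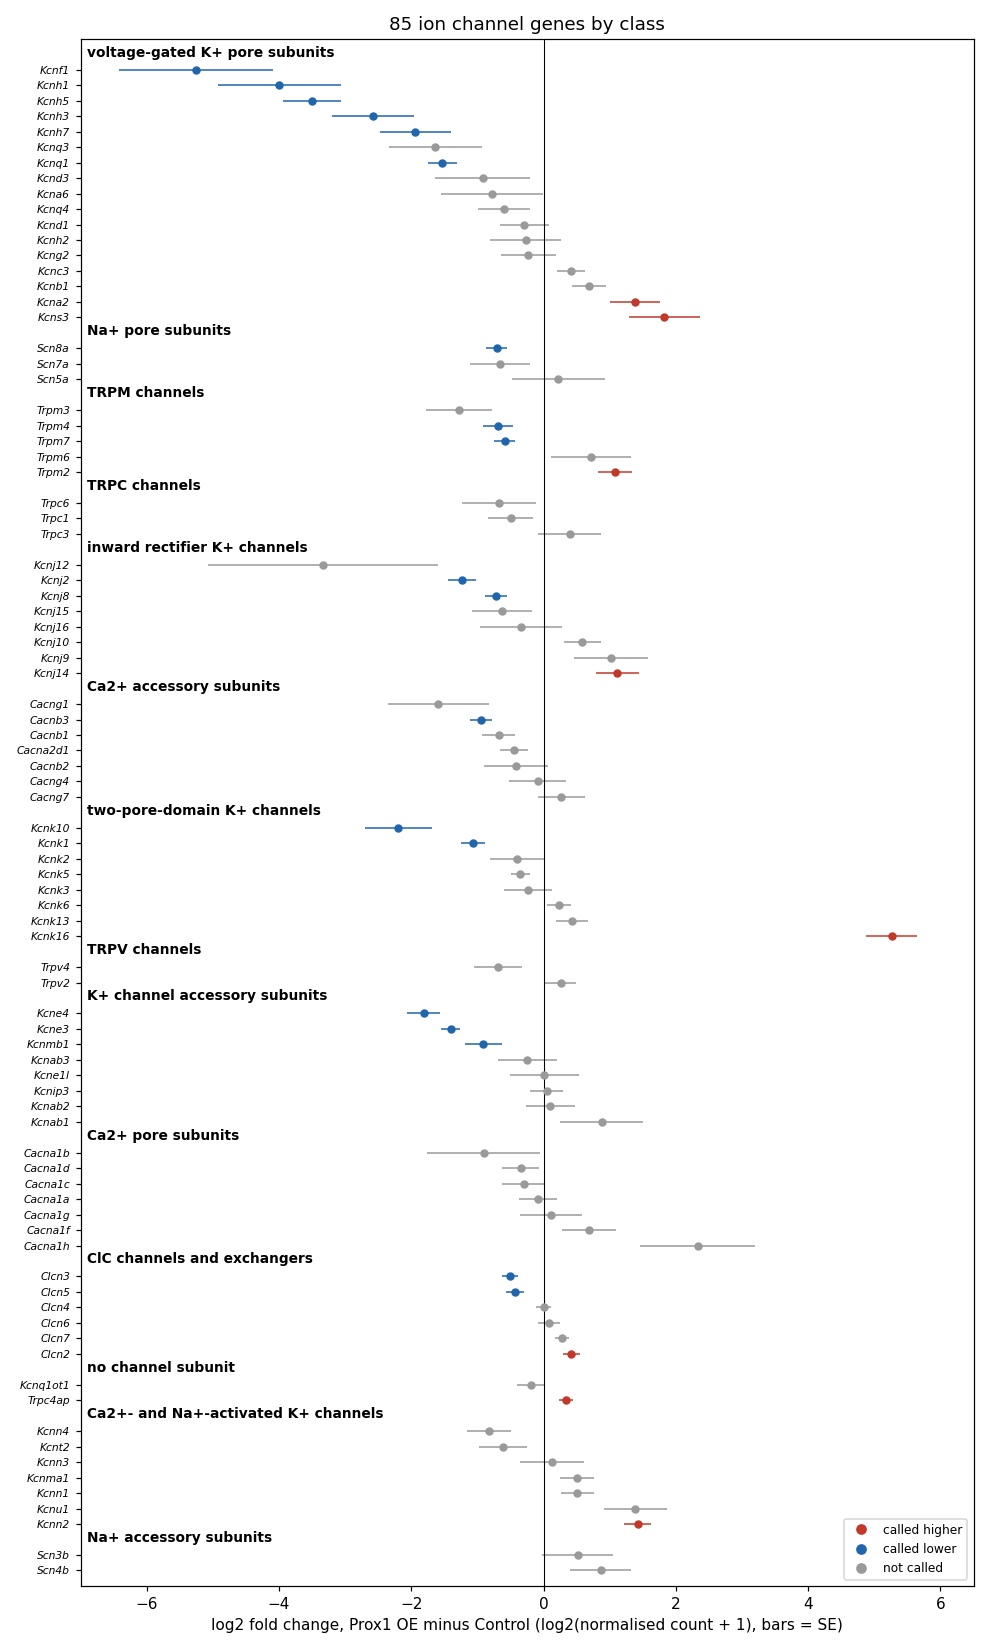
Log2 fold change of 85 of the 86 ion channel genes, Prox1 OE minus Control (x axis), grouped by class and ordered within it. Points are limma estimates from 3 Prox1 OE and 2 Control libraries, bars are 1 SE, red marks 8 genes called higher, blue 19 called lower and grey 58 not called. The largest falls are of voltage-gated potassium pore subunits, and Kcnk16 stands alone at the upper end.

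Most channel counts came from a few genes. Per kilobase of exon, the Control order was led by Kcne3 (2894 normalised counts per kb), Kcnq1 (2441), Kcnk1 (1622) and Kcnk5 (853), followed by Clcn7 (466), Clcn4 (420) and Trpv4 (292). In Prox1 OE, Kcne3 (1091), Kcnq1 (866), Kcnk1 (782) and Kcnk5 (673) still led the channel subunits, closer together than before. Trpc4ap, which is no channel, was at 688 in Control and, at 872, above Kcnq1 in Prox1 OE. The 10 channel subunits with the most counts made up 78.7% to 79.0% of channel counts in Control and 72.6% to 74.5% in Prox1 OE, without overlap.

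**Figure D2:**
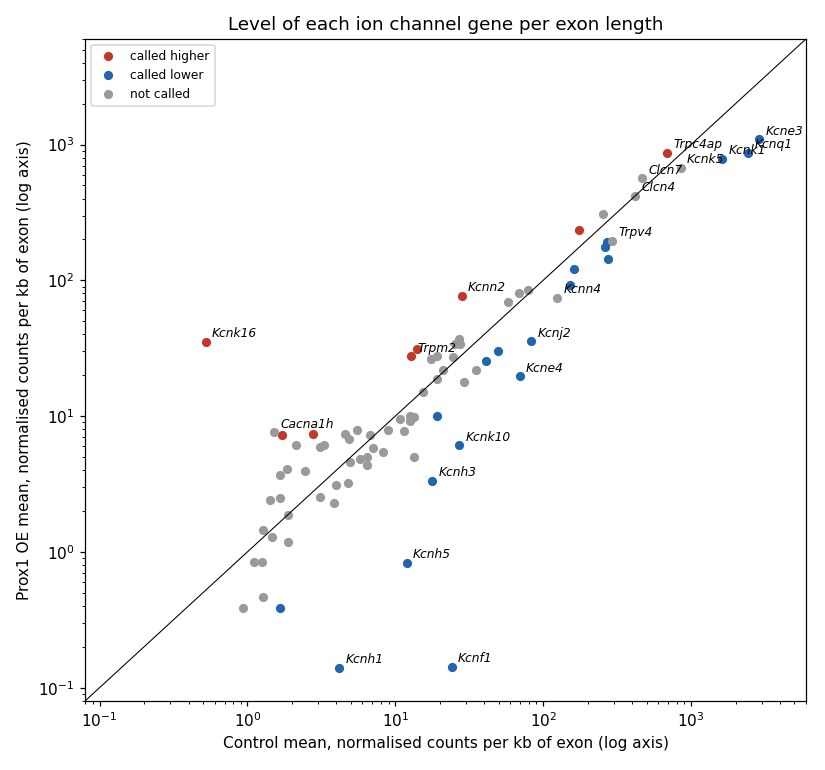
Mean level of each gene in Control (x axis) and Prox1 OE (y axis) in normalised counts per kb of exon, both on log axes, with the line of equal level. Kcne3, Kcnq1 and Kcnk1 lie at the upper right below the line, Kcnk16 far above it, and Kcnf1, Kcnh1 and Kcnh5 far below. Kcnj12, at 0 in Prox1 OE, is not drawn.

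Voltage-gated potassium pore subunits were the largest class. Of 17 genes tested, 6 were lower and 2 higher, beside 16.2% lower and 17.1% higher over all genes. Kcnf1, Kcnh1, Kcnh5 and Kcnh7, 4 of the 6, met the mean of 10 only through their Control level. Kcns3, called higher, met it only through its Prox1 OE level, so the count is a description. The class total was almost entirely Kcnq1, the slow delayed rectifier of heart and epithelia, which took 92.5% and 92.4% of class counts in Control and 85.5%, 87.0% and 80.5% in Prox1 OE replicates 1, 2 and 3. Kcnq1 (chr7:143106362-143427042, plus strand, GRCm38) held 9528 and 10458 normalised counts in Control and 3995, 4141 and 2499 in Prox1 OE. Every Prox1 OE library lay below both Control libraries, and the mean was 2.82-fold lower (log2 fold change -1.53 ± 0.22 SE, adjusted p = 0.00353). The rest of the class summed to 775 and 854 normalised counts in Control and to 679, 617 and 604 in Prox1 OE. Without Kcnf1, which was high in Control replicate 2 alone, these sums were 762 and 637 against 677, 617 and 604, and the groups overlapped.

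Kcnq1ot1, which lies within the span of Kcnq1 on the other strand, was not called. This RNA of an imprinted locus was at 133 and 141 normalised counts in Control and 111, 129 and 120.4 in Prox1 OE. Its estimate was -0.19 on the log2 scale (adjusted p = 0.513). Libraries kept the strand, but the setting used for counting is not given in the sources used here.

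Kcne3 fell together with Kcnq1. This accessory subunit keeps KCNQ1 channels open and serves potassium recycling in chloride-secreting epithelia. Kcne3 held 4590.1 and 5706 normalised counts in Control and 1812, 2152 and 1856 in Prox1 OE, a 2.65-fold lower mean (log2 fold change -1.40 ± 0.14, adjusted p = 0.00234). Again the groups stood apart. The ratio of Kcne3 to Kcnq1 per kilobase was 1.11 and 1.26 in Control and 1.04, 1.20 and 1.71 in Prox1 OE, so that the Prox1 OE values lay on both sides of the Control values.

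Kcne4, an accessory subunit that inhibits KCNQ1 currents, fell more. It was at 205 and 165 normalised counts in Control and 45.0, 56.6 and 54.4 in Prox1 OE (3.56-fold lower, log2 fold change -1.81 ± 0.25, adjusted p = 0.00326), a call lost without Control replicate 1 (adjusted p = 0.0529). Kcnmb1, the smooth muscle beta subunit of the large-conductance calcium-activated potassium channel, was at 83.0 and 76.3 against 48.1, 41.3 and 37.0 normalised counts (log2 fold change -0.91 ± 0.28, adjusted p = 0.0406). That call needed every library except Prox1 OE replicate 1: adjusted p was 0.245 without Control replicate 1, 0.169 without Control replicate 2, 0.0892 without Prox1 OE replicate 2 and 0.0926 without Prox1 OE replicate 3. The pore subunit that KCNMB1 joins, Kcnma1, was not called (85.4 and 103 against 133, 163 and 109.9 normalised counts, log2 fold change 0.51, adjusted p = 0.159). Of 8 accessory potassium subunits tested, 3 were thus lower and none higher, beside 16.2% lower and 17.1% higher over all genes. The 5 others ranged from -0.25 to 0.88 on the log2 scale.

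Cftr and most bile duct markers also fell. Cftr, the cAMP-gated chloride channel of bile ducts, was at 6111 and 6398 against 1611, 1910.4 and 1477 normalised counts (log2 fold change -1.92, adjusted p = 0.00138), and Ano1, the calcium-activated chloride channel, fell by 1.11 on the log2 scale (adjusted p = 0.0232). Of 11 other chloride channel genes tested, 5 were lower (Cftr, Ano1, Ano6, Lrrc8b and Lrrc8c), 1 higher (Ano10) and 5 not called, beside 16.2% lower and 17.1% higher over all genes. The 8 bile duct markers, Cftr among them, summed to 761561 and 830875 normalised counts in Control and to between 524881 and 709638 in Prox1 OE, and none was at 0. Their part in the falls of Kcnq1 and Kcne3 was not tested.

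The EAG family of voltage-gated channels (Kcnh genes), known from brain and heart and, for Kcnh1, from tumors, was low throughout. Of 5 genes tested, 4 were lower in Prox1 OE and none higher, beside 16.2% lower and 17.1% higher over all genes. The split was the same with TMM factors and total counts, but Kcnh7 lost its call without the filter on the mean and with the replicate block. Kcnh1, Kcnh5 and Kcnh7 met the required mean only through their Control level, so the count is a description. Kcnh2 was the gene not called. Kcnh5 (chr12:74897220-75177332, minus strand) held 50.1 and 46.6 normalised counts in Control and 3.07, 3.54 and 3.47 in Prox1 OE. Each Prox1 OE library had 3 reads, 9 in all, against 116 in Control, a ratio of 14.5 with a 95% counting interval of 7.36 to 32.4 (adjusted p = 0.00275). Kcnh5 was the most even member of the family within each group.

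Kcnh1 was at 49.3 and 11.9 normalised counts in Control and at 3.07, 0 and 0 in Prox1 OE. The 3 reads of Prox1 OE stood against 74, a ratio of 27.7 (counting interval 9.11 to 137; adjusted p = 0.0167), and the call was lost without Control replicate 1 (adjusted p = 0.127) and without Prox1 OE replicate 2 (0.0539). Kcnh3 was at 131 and 73.7 against 37.8, 9.44 and 10.4 normalised counts (log2 fold change -2.57 ± 0.62, adjusted p = 0.0185), and its call was lost without Control replicate 1 (0.147), Control replicate 2 (0.0557) or Prox1 OE replicate 2 (0.0635). In both genes Prox1 OE replicate 1 was the highest of its group. Kcnh7 was at 18.1 and 32.2 against 8.18, 5.90 and 3.47 normalised counts (log2 fold change -1.94 ± 0.54, adjusted p = 0.0303), a call lost without any library but Prox1 OE replicate 1 (0.0676 to 0.18), without the filter on the mean (0.0549) and with the replicate number as a block (0.0633). Kcnh2, the rapid delayed rectifier of heart, overlapped between groups, with 106 and 80.5 against 165, 66.1 and 40.5 normalised counts (adjusted p = 0.722).

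Some of these genes overlap others. Kcnh1, Kcnh3 and Kcnh7 each share span with a gene on the other strand, namely Hhat (201 normalised counts in Control on average), Mcrs1 (2016) and Gca (1247), which had log2 fold changes of -0.43, -0.17 and -0.26 and no call. In Prox1 OE, Hhat, Mcrs1 and Gca averaged 153, 1797 and 1049 normalised counts. The counting setting is not given, and the part of their reads in the counts of Kcnh1, Kcnh3 and Kcnh7 was not tested. No overlapping gene that was tested lay on Kcnh5.

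Kcnf1, which encodes an electrically silent subunit that modifies other potassium channels, had its signal in Control almost entirely from 1 library. It was at 13.1 and 217 normalised counts in Control and at 2.04, 0 and 0 in Prox1 OE, or 272 reads against 2 (ratio 153, counting interval 41.8 to 1266; adjusted p = 0.0140). The call was lost without Control replicate 2 (adjusted p = 0.0715) and without Prox1 OE replicate 2 (0.0536). Kcnj12, an inward rectifier, showed the same library: 119 reads (101 normalised counts) in Control replicate 2 and none in any other, with no call (adjusted p = 0.177) except without Control replicate 1, where that library stood alone. Such a count in a single tumor has no replicate.

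**Figure D3:**
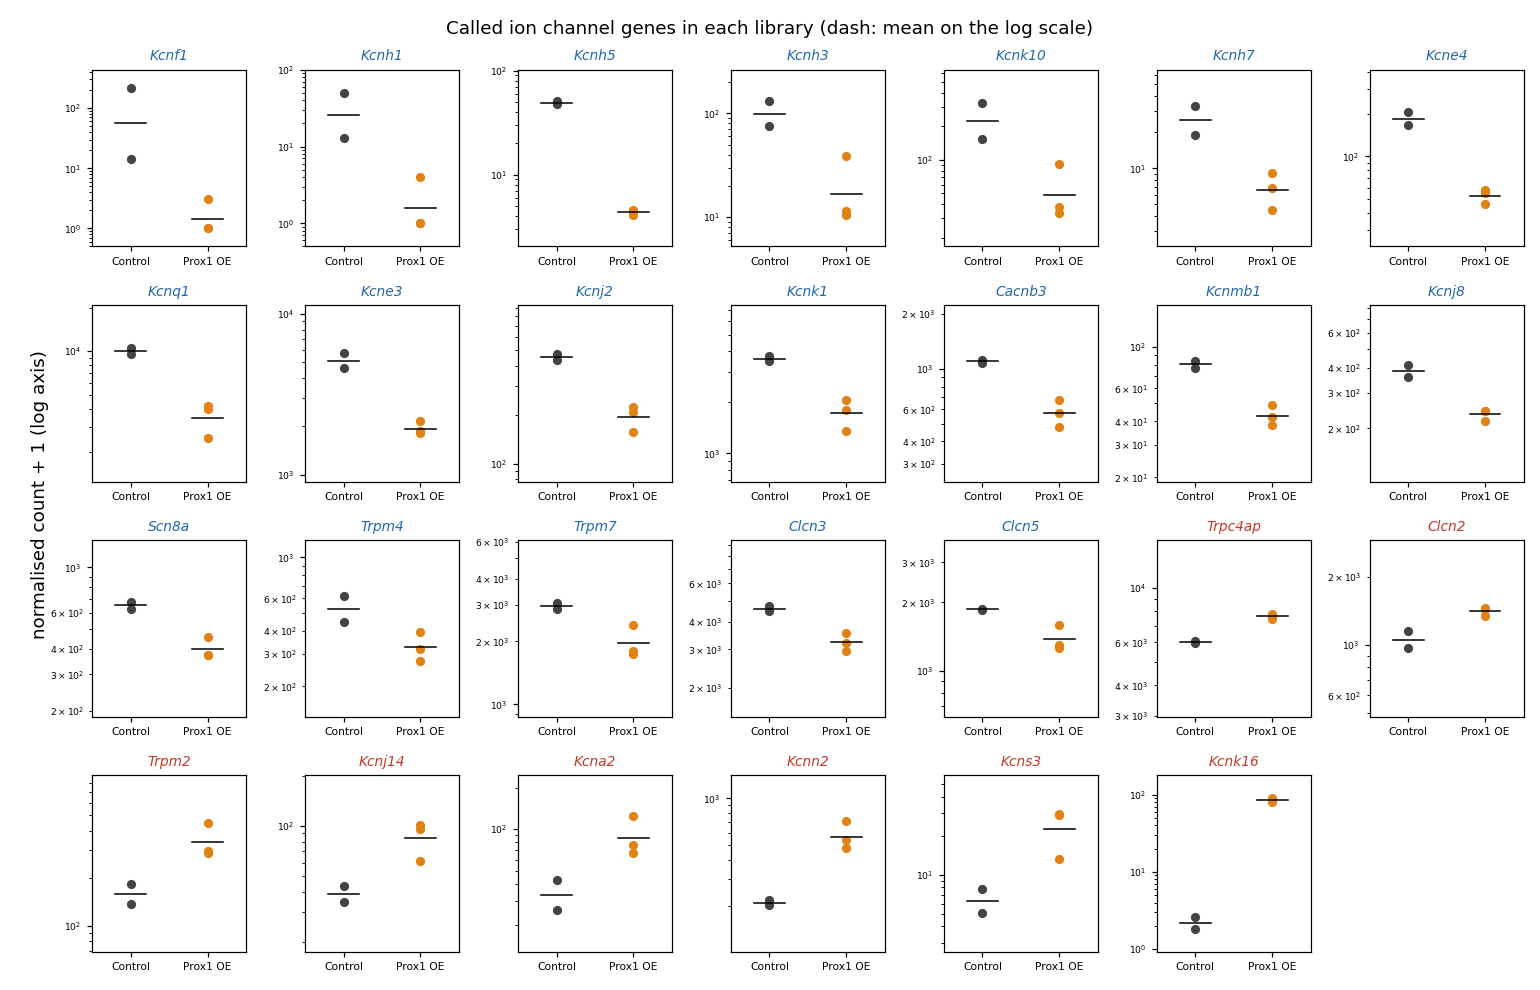
Normalised count + 1 (y axis, log scale, set separately for each gene) of the 27 called genes in the 2 Control (grey) and 3 Prox1 OE (orange) libraries. Dashes are means on the log scale, gene names in blue were lower and in red higher. The groups do not overlap in any panel, and the Control libraries are far apart for Kcnf1 and Kcnh1.

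Rises among voltage-gated potassium genes were at low level. Kcna2, a low-threshold channel of axons, was at 24.6 and 41.5 normalised counts in Control and 75.7, 66.1 and 123 in Prox1 OE (2.66-fold higher, log2 fold change 1.38 ± 0.38, adjusted p = 0.0289). Kcns3, another silent subunit, was at 4.11 and 6.78 against 12.3, 28.3 and 27.8 normalised counts (log2 fold change 1.83 ± 0.54, adjusted p = 0.0362). Kcns3 met the required mean only through its Prox1 OE level. Both calls were lost when scaled by total count and without any library but Prox1 OE replicate 1. Without Prox1 OE replicates 2 and 3, the adjusted p was 0.0506 and 0.0756 for Kcna2 and 0.110 and 0.104 for Kcns3. Both were also lost without the filter on the mean (0.0570 for Kcna2 and 0.0675 for Kcns3), and Kcns3 with the replicate number as a block (0.0803).

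K2P channels are leak channels that hold the resting voltage. Of 8 genes tested, 2 were lower and 1 higher, near the 33.3% of all genes called. Kcnk1 (TWIK1), the K2P gene with the highest level per kilobase in both groups, was at 3761 and 3488 normalised counts in Control and 1813, 2064 and 1363 in Prox1 OE (2.08-fold lower, log2 fold change -1.07 ± 0.18, adjusted p = 0.00545; 0.0612 without Control replicate 1). Kcnk10 (TREK2), a stretch- and lipid-sensitive channel, was at 154 and 320.4 against 91.0, 36.6 and 32.4 normalised counts (log2 fold change -2.19 ± 0.51, adjusted p = 0.0161). The latter call was lost without Control replicate 2 (0.125) or Prox1 OE replicate 2 (0.0628).

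Kcnk16 rose the most of all 86 genes. Kcnk16 met the required mean only through its Prox1 OE level, so this rank and its change of place per kilobase are descriptions. It encodes TALK1, an alkaline-activated channel known from pancreatic islets. Control replicates 1 and 2 had 1.64 and 0.848 normalised counts, or 3 reads together, and Prox1 OE replicates 1, 2 and 3 had 89.0, 83.8 and 78.7, or 226 reads. All Prox1 OE libraries were close to each other and far from Control, with a ratio of 67.1 (counting interval 22.7 to 328; adjusted p = 0.00138). Per kilobase it went from the last place in Control to place 23 of 86 in Prox1 OE, at 35.3 normalised counts per kb.

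Kcnk16 lies 79566 bp from Kcnk5 on chromosome 14, in the same orientation. Kcnk5 (TASK2), also alkaline-activated and known from kidney and volume control, was abundant in both groups, at 3023 and 2784 normalised counts in Control and 1949, 2568 and 2356 in Prox1 OE (log2 fold change -0.35, adjusted p = 0.0984). Kcnk16 was called and its neighbour was not, although total counts called Kcnk5 lower (log2 fold change -0.78, adjusted p = 0.00517). The ratio of Kcnk16 to Kcnk5 per kilobase was at most 0.000778 in Control and between 0.0467 and 0.0654 in Prox1 OE. The 250 bases before the annotated start of each gene (RefSeq, GRCm38.p6, minus strand, 5′ to 3′) are shown because the pair are neighbours of which 1 was called, with CG dinucleotides in capitals. Kcnk16 is at chr14:20269270-20269519 and Kcnk5 at chr14:20181783-20182032.
Kcnk16: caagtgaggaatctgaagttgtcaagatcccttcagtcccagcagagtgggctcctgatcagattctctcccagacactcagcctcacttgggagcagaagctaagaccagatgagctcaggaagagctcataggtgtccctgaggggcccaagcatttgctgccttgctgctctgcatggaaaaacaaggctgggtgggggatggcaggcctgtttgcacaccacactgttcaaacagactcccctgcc
Kcnk5: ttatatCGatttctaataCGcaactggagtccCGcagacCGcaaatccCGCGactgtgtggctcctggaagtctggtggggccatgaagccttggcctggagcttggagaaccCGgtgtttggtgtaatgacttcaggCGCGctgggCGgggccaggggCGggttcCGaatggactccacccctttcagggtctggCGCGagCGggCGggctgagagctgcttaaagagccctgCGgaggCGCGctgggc
The Kcnk16 stretch holds 0 CG dinucleotides and the Kcnk5 stretch 19, against a median of 6 over the same stretch of 32851 promoters. GC content was 54.8% and 62.8%.

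Inward rectifiers were lower in 2 and higher in 1 of 8 genes, near the 33.3% of all genes called. Kcnj2 (Kir2.1), which steadies the resting voltage, was at 471 and 433 normalised counts in Control and 154, 222 and 206 in Prox1 OE (2.33-fold lower, log2 fold change -1.23 ± 0.21, adjusted p = 0.00565; 0.075 without Control replicate 1). Its neighbour Kcnj16, 38195 bp away, overlapped between groups, with 189.8 and 39.0 against 59.3, 54.3 and 97.2 normalised counts. Kcnj8 (Kir6.1), the pore of the ATP-sensitive channel of vessel walls, was at 361 and 413 against 242, 216 and 244 normalised counts (log2 fold change -0.72 ± 0.17, adjusted p = 0.0174). Its sulfonylurea receptor partner Abcc9 fell by 0.76 on the log2 scale (adjusted p = 0.0152). The Kcnj8 call was lost without Control replicate 1 (0.112), Control replicate 2 (0.17) or Prox1 OE replicate 2 (0.0526).

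The 8 markers of smooth muscle and pericytes summed to 54256 and 59821 normalised counts in Control and to between 30519 and 36533 in Prox1 OE. Of these, 6 were lower, among them Acta2 and Myh11 of the contractile apparatus and the pericyte genes Rgs5 and Cspg4, and none was at 0. The part of these cells in the falls of Kcnj8, Abcc9 and Kcnmb1 was not tested.

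Kcnj14 (Kir2.4) was at 33.7 and 42.4 normalised counts in Control and 95.1, 100.3 and 60.2 in Prox1 OE (2.24-fold higher, log2 fold change 1.12 ± 0.32, adjusted p = 0.0349). Leaving out Prox1 OE replicate 3 kept the call. It was lost when scaled by total count and without the filter on the mean (adjusted p = 0.0670). It was also lost without either Control library, Prox1 OE replicate 1 (0.0612) or Prox1 OE replicate 2 (0.108).

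Calcium- and sodium-activated potassium channels were the potassium class with a positive median (0.51 on the log2 scale). However, 1 of 7 genes was called, against 33.3% of all genes. Kcnn2 (SK2), a small-conductance channel opened through calmodulin and known from bile duct epithelium and neurons, was at 201 and 219 normalised counts in Control and 537, 472 and 707 in Prox1 OE. The mean was 2.72-fold higher (log2 fold change 1.42 ± 0.20, adjusted p = 0.00353). Kcnn4, the intermediate-conductance channel of epithelia and blood cells, was at 594 and 682 against 545, 367 and 231 normalised counts and was not called (log2 fold change -0.82 ± 0.33, adjusted p = 0.0904). Its Prox1 OE values were spread over a wide range, all below Control, and Kcnn4 was called lower without Prox1 OE replicate 1 (-1.12, adjusted p = 0.0156) and with total counts (-1.25, adjusted p = 0.0188), and was at -0.51 without Prox1 OE replicate 3.

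The balance between these related channels shifted within each library. Per kilobase, Kcnn2 was at 27.0 and 29.3 and Kcnn4 at 116 and 133 normalised counts in Control. In Prox1 OE replicates 1, 2 and 3, Kcnn2 was at 71.9, 63.2 and 94.7 and Kcnn4 at 107, 71.7 and 45.3. The ratio of Kcnn2 to Kcnn4 was therefore 0.232 and 0.220 in Control and 0.675, 0.881 and 2.09 in Prox1 OE. Only in Prox1 OE replicate 3 did Kcnn2 exceed Kcnn4.

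Of 14 voltage-gated calcium channel genes, Cacnb3 alone was called, against 33.3% of all genes. The beta subunit it encodes brings pore subunits to the membrane. Cacnb3 was at 1075 and 1124 normalised counts in Control and 569, 671 and 480.3 in Prox1 OE (1.92-fold lower, log2 fold change -0.95 ± 0.17, adjusted p = 0.00654), with calls lost without Control replicate 1 (0.0657) or replicate 2 (0.06). All 7 pore subunits missed the threshold. The most abundant, Cacna1d, was at 177 and 141 against 158, 127 and 93.7 normalised counts, with overlap. Cacna1h, a low-voltage-activated pore, had the largest estimate (2.33 ± 0.87, adjusted p = 0.0768) at 4.11 and 25.4 against 148, 47.2 and 26.6 normalised counts. It was called by DESeq2, with the replicate number as a block and without Control replicate 2.

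Cacnb3 was also the called gene whose promoter held a letter match searched for. Promoters of 62 of the 86 genes were at hand (RefSeq, GRCm38.p6, 250 bases before to 50 after the start). The letters GTGGGAA, the core bound by RBPJ, the DNA-binding partner of NOTCH, were looked for on both strands because the tumors were driven by NICD. They were found for 4 of the 62 genes (Cacnb3, Kcnab1, Kcnab2 and Kcnh2) and in 6.38% of all 32851 promoters. A gene was counted if any of its promoters held the letters, so the units differ. TTCAGCACC, a part of the REST element, and CAAAGTCCA, of the HNF4A type, were found in 0 of the 62 and in 0.371% and 0.475% of all promoters. The Cacnb3 stretch (chr15:98632078-98632327, plus strand, 5′ to 3′) shows the match in capitals.
Cacnb3: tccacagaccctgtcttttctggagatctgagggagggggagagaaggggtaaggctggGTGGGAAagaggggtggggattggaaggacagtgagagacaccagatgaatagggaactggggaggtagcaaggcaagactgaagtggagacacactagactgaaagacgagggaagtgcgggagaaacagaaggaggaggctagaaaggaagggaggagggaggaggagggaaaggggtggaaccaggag
The match begins 191 bases before an annotated start that lies inside the gene, which begins at chr15:98630840. This stretch was taken because it holds the match. It is a match of letters, and binding was not measured.

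Sodium channel genes gave 1 call of 6, against 33.3% of all genes called. Scn8a, the pore subunit Nav1.6 of neurons, was at 625 and 678 normalised counts in Control and 372, 453 and 374 in Prox1 OE (log2 fold change -0.71 ± 0.16, adjusted p = 0.0145; 0.108 and 0.132 without Control replicates 1 and 2). Of the neuron and Schwann cell markers, Tubb3 and S100b were lower, and the part of such cells in the fall of Scn8a was not tested.

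TRP channels gave 3 calls of 10, near the 33.3% of all genes called. They were Trpm7, Trpm4 and Trpm2. Trpm7, a channel fused to a kinase that carries magnesium, was at 3061 and 2854 normalised counts in Control and 2402, 1743 and 1808 in Prox1 OE (log2 fold change -0.59 ± 0.16, adjusted p = 0.0276). Trpm4, a calcium-activated channel for monovalent cations, was at 445 and 619.6 against 395, 317 and 273 (log2 fold change -0.69 ± 0.22, adjusted p = 0.0484). Their calls were lost without any library but Prox1 OE replicate 1 (0.0709 to 0.189 for Trpm7 and 0.0998 to 0.336 for Trpm4). With all libraries, the Trpm7 call was also lost without the mean-variance trend (0.0722), and the Trpm4 call without the trend (0.0838), without the filter on the mean (0.0788), with TMM factors (0.0514) and with a pseudocount of 10 (0.0503). The replicate block lost Trpm4 as well (0.0738). Trpm2, a channel opened by ADP-ribose under oxidative stress and abundant in phagocytes, was at 136 and 184 against 288, 295 and 447 normalised counts (2.14-fold higher, log2 fold change 1.08 ± 0.26, adjusted p = 0.0176). That call was lost without either Control library (0.16 and 0.0533).

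The 8 macrophage markers summed to 27145 and 30395 normalised counts in Control and to between 42466 and 61075 in Prox1 OE, with Clec4f, Vsig4, Cd5l and C1qa called higher, 4 not called and none at 0. Their part in the rise of Trpm2 was not tested. The TRPC genes (3) and TRPV genes (2) had no call. Trpv4, a channel sensitive to stretch and osmolarity found on bile duct cilia, was at 1103 and 1277 against 1133, 817 and 431 normalised counts (log2 fold change -0.69 ± 0.36, adjusted p = 0.177), so that Prox1 OE replicate 1 lay within the Control values. It was called lower without that library (adjusted p = 0.043) and with total counts (-1.12, adjusted p = 0.039), and was at -0.30 without Prox1 OE replicate 3.

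ClC genes gave 3 calls of 6, against 39% of all genes at a mean of at least 100, a level all 6 reached. Clcn3 and Clcn5, exchangers of endosomes, were at 4477 and 4738 against 3566, 2963 and 3200.1 normalised counts (log2 fold change -0.51 ± 0.12, adjusted p = 0.0176) and at 1851 and 1878 against 1594, 1260.2 and 1304 (-0.44 ± 0.14, adjusted p = 0.0464). Clcn2, a chloride channel of the cell surface, was at 967 and 1151 against 1337, 1444 and 1452 (0.42 ± 0.13, adjusted p = 0.0429), and with total counts its direction turned (-0.012). Clcn2 also overlaps Polr2h and Fam131a on the other strand, which were not called. Clcn4, also an endosomal exchanger, was not called except lower with total counts, at 3506 and 3691 against 3755, 3326 and 3719.7 normalised counts, and Clcn7 of lysosomes was at 2491 and 2439 against 2935, 2860.3 and 3146 (adjusted p = 0.0882). Without single libraries the adjusted p was 0.0512 to 0.138 for Clcn3 (either Control or Prox1 OE replicate 2 left out), 0.107 to 0.224 for Clcn5 and 0.0967 to 0.346 for Clcn2 (any library but Prox1 OE replicate 1).

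Trpc4ap was called higher, at 6084 and 5968 normalised counts in Control and 7822, 7421 and 7662 in Prox1 OE (1.27-fold, log2 fold change 0.34 ± 0.11, adjusted p = 0.0422). Its direction turned when scaled by total count (-0.090), and the call was lost without any library but Prox1 OE replicate 1 (0.0687 to 0.241). Clcn2 and Trpc4ap were the called genes whose direction depended on the scaling.

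**Figure D4:**
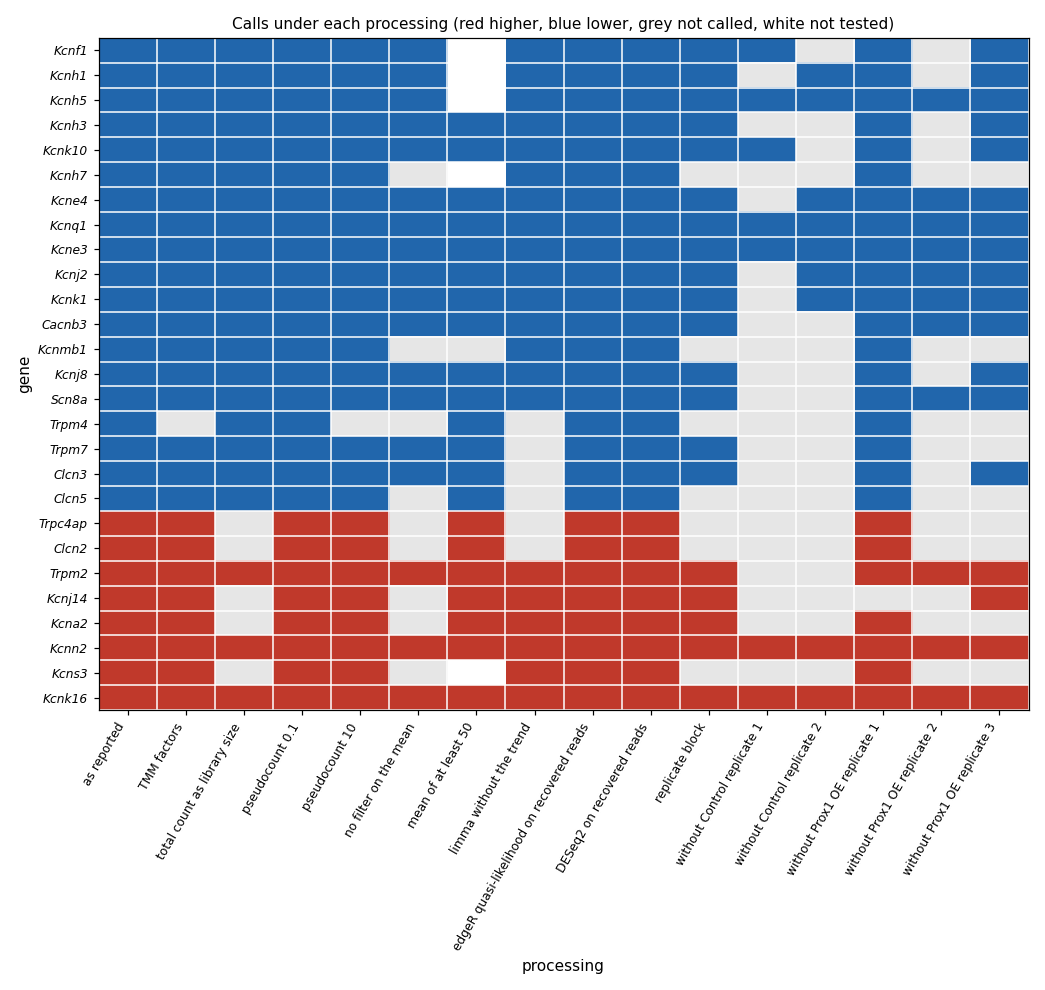
Call of each of the 27 genes (rows) as reported and under 15 alternatives (columns): red higher, blue lower, grey not called, white not tested. Kcnq1, Kcne3, Kcnk16 and Kcnn2 are filled in all columns and Kcnh5 in all that tested it, and most grey cells lie where a library was left out.

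Genes outside the symbol rule that serve the same transport were also counted. Each list stands beside the 16.2% lower and 17.1% higher over all genes. Among partner proteins of channels, 4 of 17 were lower and 2 higher. Stac2, an adaptor of calcium channels, fell by 1.77 and Ank3, which anchors sodium channels, by 0.89 on the log2 scale, while Ank2 (0.65) and Fgf12 (1.24), which binds sodium channels, were higher. Unc80, of the NALCN leak channel complex, was at 33.7 and 51.7 against 16.4, 10.6 and 5.79 normalised counts.

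Of the other cation channels, 3 of 11 were lower and 1 higher. The stretch-gated Piezo1 (log2 fold change -0.79, adjusted p = 0.00998) and Piezo2 (-1.42, adjusted p = 0.0048) and the proton channel Hvcn1 (-0.86, adjusted p = 0.0201) fell. Scnn1a, the alpha subunit of the epithelial sodium channel, was at 73.9 and 94.1 normalised counts in Control and 167, 230.1 and 329.8 in Prox1 OE (log2 fold change 1.47, adjusted p = 0.0118).

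The other TRP genes gave 1 fall, of the cilium channel Pkd2 (log2 fold change -0.98, adjusted p = 0.00314), and 1 rise, of lysosomal Mcoln1 (0.44, adjusted p = 0.0272), among 5. For calcium stores and store-operated entry, 3 of 12 genes were lower and 1 higher. The IP3 receptor Itpr3, which releases calcium at the apical pole of bile duct cells, was at 1715 and 1822 against 870.1, 714 and 457 normalised counts (log2 fold change -1.43, adjusted p = 0.00664). Itpr1 (-0.65) and Orai2 (-0.95) fell and Orai1 (0.47), the pore of store-operated entry, rose. Of 6 sodium pump genes, the beta subunits Atp1b1 (-0.88) and Atp1b2 (-1.88) were lower and none was higher.

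The 84 genes with a matching symbol but under the mean of 10 were low. Of these, 40 never exceeded 3 reads in a library. Voltage-gated potassium pore subunits were the largest class among them (23 of 40 genes of the class), and 7 of 10 sodium pore subunits were there as well.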

How the data were processed

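The authors built stranded RNA-seq libraries and, per the labels, used STAR and mm10. The counting tool is not given in the sources used here. The deposited table holds a signal per gene, namely DESeq2-normalised counts, from which whole reads were recovered for 100% of values (tolerance 0.01). A deposited table of the authors' own comparison (fold changes, p-values) was not used.

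limma 3.58.1 in R 4.3.3, with a mean-variance trend, was fitted to log2(normalised count + 1) of 17105 genes with a mean of at least 10, without covariates. Tests were two-sided with Benjamini-Hochberg adjustment over all genes and a threshold of 0.05. Fold changes understate low genes. Where a group had 3 reads or fewer per library, a ratio with an exact 95% interval is given, which covers counting error only. edgeR 4.0.16 and DESeq2 1.42.0 on recovered reads were alternatives. The limma fit with the trend, edgeR and DESeq2 were tested on simulated data, and the other alternatives and the counting intervals were not. Symbols, positions and exon lengths came from GENCODE for GRCm38 (99.5% of identifiers matched). 0 columns were unassigned.

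The genes and lists were chosen with earlier results of these data known. Named were Prox1, up to 12 of the largest rises and of the largest falls among calls (8 and 12), the most abundant gene per class and genes at the floor. Other genes were named after their values were seen. 1 gene is kept in every count but not reported here by itself.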

Additional observations from a re-analysis of the deposited data

How the results depend on the processing

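Counts of calls depended on the scaling, the filter and single libraries. The count of ion channel genes called lower (19) was 14 to 28 under alternatives that kept all libraries. The count called higher (8) was 3 under total counts and 3 without a filter on the mean. Leaving out 1 library gave 2 to 8 higher and 6 to 23 lower. Without a Control library the other one was assumed to vary like the Prox1 OE libraries. The median log2 fold change (-0.28) was -0.70 under total counts, where all genes moved down (median -0.44). It was -0.38 to -0.11 over the libraries left out and -0.11 with the replicate block, both -0.11 with Prox1 OE replicate 3 absent. The direction of Clcn2 (-0.012) and Trpc4ap (-0.090) turned under total counts. Prox1 (1.90, adjusted p = 0.0607) passed with edgeR (2.36) and without Prox1 OE replicate 1 or 3, with estimates of 1.12 to 2.39 over the libraries left out. The cause of these changes was not tested.

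A replicate block, possible only for replicates 1 and 2 of each group, called 22 ion channel genes, 20 of them shared with the 27 reported, and Prox1 passed at 2.39. Same-numbered libraries had correlated deviations of 0.137 and 0.0156, and the labels tie nothing to the number. Of 475 values of 32 single genes under the 15 alternatives, 376 kept their direction and side of the threshold, 92 fell short of it, 5 newly passed and 2 turned.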
